A study of Mus musculus with 10 samples.

Results

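The 30 min serum response of Med23 knockout (KO) MEFs was set against that of wild-type (WT) MEFs, gene by gene, on 4 of the 10 arrays of the series. The 4 arrays were 1 of KO MEFs without serum (0 min), 1 of KO MEFs after 30 min of serum, 1 of WT MEFs at 0 min and 1 of WT MEFs at 30 min. MEFs are embryonic fibroblasts, here taken from 9.5-day embryos of each genotype and immortalised by themselves in culture. The serum experiment looked at gene expression that depends on the transcription factor SRF, and 1 further array of each genotype at 90 min is used below for levels only. Of 18193 genes with a named probe set, 11637 had a level above the median of all probe sets on at least 1 of the 4 arrays and were analysed.

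The quantity reported is the response difference, written D. It is the KO change (30 minus 0 min) minus the WT change, on the log2 scale of the deposited values, so a D of 1 means that the ratio of 30 to 0 min was 2-fold larger in KO. The same D equals the KO minus WT gap at 30 min (the level reached) minus the KO minus WT gap at 0 min (the starting level), which lets each D be split between the 2 times. Each condition had 1 array and a genotype may stand for 1 cell line, so line and genotype cannot be told apart. All values are descriptions of these 4 cultures, with no test and no replicate error. The yardstick for size was the spread of D itself. Its standard deviation was 0.37 over the 11637 genes, 0.26 over 19997 probe sets too low to pass and 0.22 over 64 array control probe sets, of which 0 reached 1 in size. The probe sets too low to pass were selected by level, so their spread need not stand for that of analysed genes. Among analysed genes the standard deviation was 0.43 at mean levels of 3 to 5 and 0.41 at 5 to 7. These levels held 57 (2.15%) and 71 (2.26%) genes with D of at least 1 in size. It was 0.31 at levels of 7 to 9 and of 9 to 15, with 39 (0.99%) and 25 (1.30%) such genes.

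Serum restarts quiescent fibroblasts. Within minutes, kinase signals reach transcription factors already bound at immediate-early genes, above all SRF with its ternary complex partners such as ELK1, while serum also frees the coactivator MAL (gene Mrtfa) from actin to work with SRF on cytoskeletal genes. MED23 is a subunit of Mediator, the complex between transcription factors and RNA polymerase II, and is known as a contact of phosphorylated ELK1. Many immediate-early genes encode transcription factors, and others encode phosphatases and RNA-binding proteins that end the response.

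The knockout label held on the arrays. Med23 (probe set 1452064_at) read 3.30 in the KO culture at both times, below the array medians, while the WT culture read 7.14 without serum and 7.39 after 30 min. Of 11 fibroblast markers, 9 stood above the array median on each of the 4 arrays, while Lum and Thy1 lay below it. Of the matrix genes on this list, Dcn (4.53 in KO, 13.71 in WT) and Col1a2 (13.39 in KO, 9.55 in WT) stood far apart before serum. Col1a1 (12.36 in KO, 12.19 in WT) and Col3a1 (12.89 in KO, 12.96 in WT) stood close together. The summed linear level of the fibroblast markers was 52603 and 51675 on the KO arrays at 0 and 30 min, and 73223 and 73535 on the WT arrays. Macrophage markers stood above the array median for 2 of 8 on the KO arrays and 3 of 8 on the WT arrays. Their summed linear level was 156 and 143 in KO against 713 and 686 in WT. Cd14 (6.25 and 6.13 in KO, 9.28 and 9.22 in WT) gave most of the WT sums. Epithelial markers stood above the array median for 1 of 7 on every array. Endothelial markers did so for 3 and 2 of 7 on the KO arrays and 2 of 7 on both WT arrays. Their summed linear level was 118 and 108 in KO, against 266 and 309 in WT. Neural markers stood above the array median for 5 of 7 on both KO arrays, and for 6 and 5 of 7 on the WT arrays. At 0 min Sox2 (2.61 in KO, 8.33 in WT), Flt1 (4.65 and 7.69) and Emcn (5.38 and 3.10) stood far apart. Ptprc and Adgre1, which define blood cells and macrophages, lay below the medians on all 4 arrays, as did Tyrobp, Itgam and Lyz2. The macrophage marker Csf1r (4.54 and 4.31 in KO, 4.57 and 4.26 in WT) lay above the medians on all 4, as did Cd14. Cd68 lay above the medians on the WT arrays only. In such bulk samples, fewer cells of a type and less RNA per cell cannot be told apart, and the part of these markers in the differences below was not tested. Array medians ran from 3.86 to 3.93.

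Serum moved similar numbers of genes in both genotypes. In KO MEFs 219 genes rose by at least 1 (1.88% of those analysed), against 197 in WT MEFs (1.69%). The genes common to both numbered 111, which is 50.7% of the KO set and 56.3% of the WT set. Falls of at least 1 were few, 25 in KO (0.215%) and 33 in WT (0.284%), with 7 in common. Across all 11637 genes the KO and WT changes correlated at r = 0.61, a description across genes that are not independent replicates. Among the 111 genes that rose in both, the median rise was 1.96 in KO and 1.63 in WT, and 83 of them started lower in KO than in WT. Their median gap at 0 min was -0.70, against -0.03 over all genes. KO started at least 1 lower for 41 of the 111 (9.01% of all genes) and at least 1 higher for 9 (9.24% of all genes). The 0 min arrays also served to choose the 111, so these starts are not independent of the choice.

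A response difference of at least 1 in size was found for 192 genes (1.65%), 103 with D of at least 1 (0.885%) and 89 with D of at most -1 (0.765%). Of the 103, 62 involved a KO rise of at least 1, and of the 89, 51 involved a WT rise of at least 1. No gene rose by at least 1 in a genotype and fell by at least 1 in the other. Just inside the threshold lay Boc, Cenpn and Gas2l3 at D = 1.0 and Echdc2 at -1.0, and just outside it Fanci and Txnip at 0.99, Zfhx2 at -0.99 and Abat at -0.98. Among the 305 genes that rose by at least 1 in either genotype, 20.3% had D of at least 1 and 16.7% had D of at most -1.

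**Figure D1:**
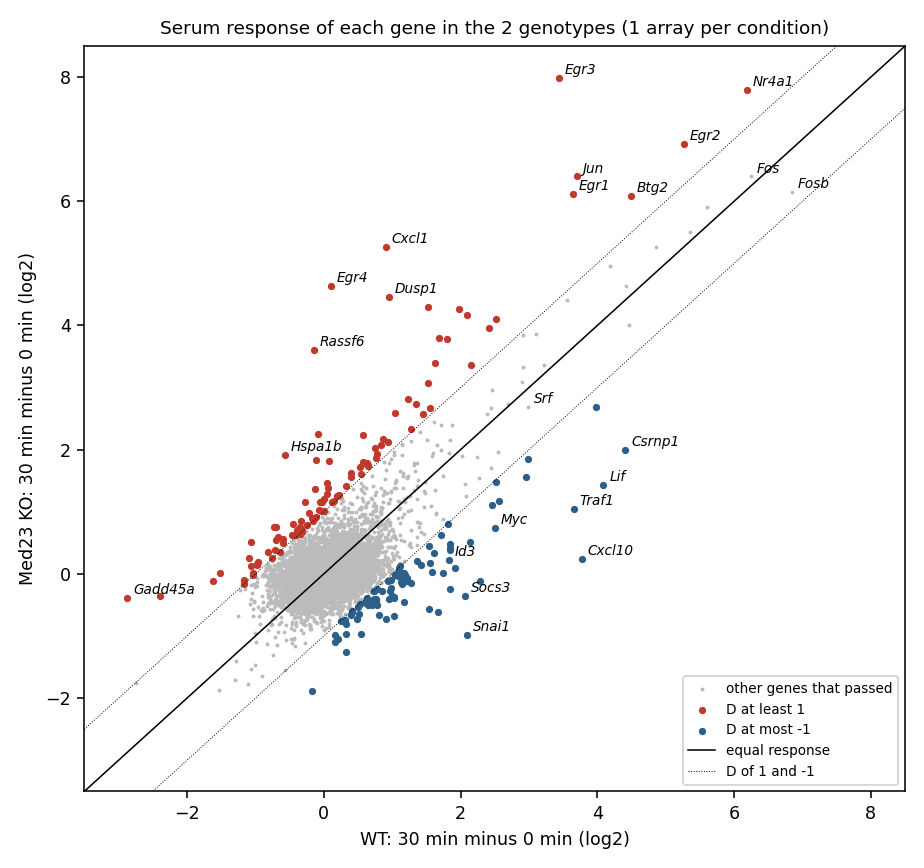
Change from 0 to 30 min of serum in Med23 KO MEFs (y axis, log2) and in WT MEFs (x axis, log2) for the 11637 genes, 1 point each. Red points have D of at least 1 (103 genes), blue points D of at most -1 (89 genes), the solid line marks equal change and the dotted lines D of 1 and -1. Fos lies near the line at 6.40 in KO and 6.25 in WT, Egr3 and Egr4 lie far above it and Cxcl10 far below it.

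Splitting the 192 genes by time gave 5 classes. In 35 genes the genotypes differed by at least 1 at the start and by less at 30 min. In 71 genes they differed by at least 1 only in the level reached. In 50 genes the gap was at least 1 in the same direction at both times and widened or narrowed, in 1 gene (Socs3) the gap changed direction, and in 35 genes neither gap reached 1. By this definition the 24 genes with a positive D from the starting level alone started lower in KO and the 11 with a negative D started higher. Over all genes the KO level was at least 1 lower in 9.01% and at least 1 higher in 9.24% at 0 min, and in 9.87% and 8.70% at 30 min.

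Promoter sequences of 5 genes are shown as examples of the main patterns described below. Each holds the motif marked in it, but most genes of the same pattern lack that motif, as counted below, so the examples do not tie a motif to a pattern. In Dusp1 and Btg2 KO started lower and reached about the WT level, in Socs3 and Cxcl10 the rise seen in WT was missing in KO, and Srf responded about equally. Each run holds 250 bases before and 50 bases after the RefSeq start site (GRCm38.p6), written 5′ to 3′ on the gene's strand. Capitals mark a CRE, the site of CREB family factors (TGACGTCA), in Dusp1 and Btg2, a STAT motif (TTCNNNGAA) in Socs3, NF-kB motifs in Cxcl10 and CArG boxes, the site of SRF, in Srf.
Dusp1, chr17:26508423-26508722, minus strand: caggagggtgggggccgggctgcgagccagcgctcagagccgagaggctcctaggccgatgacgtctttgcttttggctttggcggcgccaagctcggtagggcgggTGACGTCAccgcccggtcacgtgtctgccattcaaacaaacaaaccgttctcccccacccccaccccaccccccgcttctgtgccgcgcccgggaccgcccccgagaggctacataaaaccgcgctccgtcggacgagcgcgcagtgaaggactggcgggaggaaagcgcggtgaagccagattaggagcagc
Btg2, chr1:134079106-134079405, minus strand: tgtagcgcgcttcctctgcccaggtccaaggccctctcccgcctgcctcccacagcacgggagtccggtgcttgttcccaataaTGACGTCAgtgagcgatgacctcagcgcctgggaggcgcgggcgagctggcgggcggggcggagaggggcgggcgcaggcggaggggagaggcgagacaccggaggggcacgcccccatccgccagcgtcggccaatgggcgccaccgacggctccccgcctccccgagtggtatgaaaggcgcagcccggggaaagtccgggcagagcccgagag
Socs3, chr11:117969317-117969616, minus strand: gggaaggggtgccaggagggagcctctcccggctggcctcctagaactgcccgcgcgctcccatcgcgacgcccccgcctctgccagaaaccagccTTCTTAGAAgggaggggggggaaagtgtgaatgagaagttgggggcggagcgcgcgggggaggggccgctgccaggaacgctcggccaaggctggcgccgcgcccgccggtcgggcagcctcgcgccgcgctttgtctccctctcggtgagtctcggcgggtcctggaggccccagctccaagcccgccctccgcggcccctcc
Cxcl10, chr5:92348840-92349139, minus strand: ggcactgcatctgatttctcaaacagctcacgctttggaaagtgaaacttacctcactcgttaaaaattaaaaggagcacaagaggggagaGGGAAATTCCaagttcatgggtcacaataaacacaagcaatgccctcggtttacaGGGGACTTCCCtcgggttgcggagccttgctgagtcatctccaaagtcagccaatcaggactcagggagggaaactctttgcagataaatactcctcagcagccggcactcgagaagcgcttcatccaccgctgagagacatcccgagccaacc
Srf, chr17:46556113-46556412, minus strand: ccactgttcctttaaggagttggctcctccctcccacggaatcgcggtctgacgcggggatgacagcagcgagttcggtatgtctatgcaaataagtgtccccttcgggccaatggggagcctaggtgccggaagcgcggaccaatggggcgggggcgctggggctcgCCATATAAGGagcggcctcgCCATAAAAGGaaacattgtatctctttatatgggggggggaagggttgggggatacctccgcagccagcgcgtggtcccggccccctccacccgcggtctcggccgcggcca
Counting the start site as 1, the CRE lay at -143 to -136 in Dusp1 and at -166 to -159 in Btg2, the STAT motif at -154 to -146 in Socs3, the NF-kB motifs at -159 to -150 and, as 2 overlapping matches, at -104 to -94 in Cxcl10, and the CArG boxes at -82 to -73 and -62 to -53 in Srf.

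Both strands of these windows were searched for the 4 motifs, which were chosen with the values of these data known. Of the 11637 genes, 9401 had a window in the RefSeq table. A CRE stood in 4 of 14 windows of genes that rose in KO and had a positive D from the starting level alone (28.6%). It stood in 1 of 20 windows of genes that rose in WT and had a negative D from the level reached alone (5.0%), in 7 of 66 windows of genes that rose in both with D under 1 in size (10.6%), and in 3.55% of all 9401. CArG boxes stood in 1 of 14, 0 of 20 and 8 of 66 windows of the same groups (12.1% of the last) and in 1.58% of all. STAT motifs stood in 1 of 14, 5 of 20 (25.0%) and 3 of 66 (4.55%), with 8.24% of all, and NF-kB motifs in 4 of 14, 6 of 20 (30.0%) and 13 of 66 (19.7%), with 12.3% of all. Over all 36 windows of genes that rose in WT with a negative D, whatever the class, the shares were 16.7% for the STAT motif, 25.0% for the NF-kB motif, 5.56% for the CRE and 0 of 36 for the CArG box. Over all 32851 windows of the table the shares were 1.79% for the CRE, 1.63% for the CArG box, 8.30% for the STAT motif and 8.46% for the NF-kB motif. The groups are small, and a match is only a run of letters.

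Immediate-early transcription factor genes had more positive than negative D values, 22 of 29 being above 0, against 5156 of all 11637 genes. Of 29 genes, 10 had D of at least 1 (34.5%, against 0.885% of all genes and 20.3% of genes that rose) and 4 had D of at most -1 (13.8%, against 0.765% and 16.7%). Their median D was 0.68, against -0.04 over all genes, and 0.22 when the probe sets of each gene were averaged. The median gap was -0.91 at 0 min and -0.62 at 30 min. At least 1 lower in KO were 12 of 29 at the start and 6 of 29 at 30 min (9.01% and 9.87% of all genes). At least 1 higher were 2 and 4 of 29 (9.24% and 8.70% of all genes). The list was chosen as genes that serum induces, and 28 of 29 rose by at least 1 in KO and 25 in WT.

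The Egr genes encode zinc finger transcription factors that SRF switches on. Egr1 (1417065_at) read 6.43 before and 12.55 after serum in KO, against 9.81 and 13.45 in WT. In each pair of values below, the 0 min array comes before the 30 min array. KO started 10.4-fold lower and stood 1.87-fold lower after serum, so that the rise was 6.12 in KO and 3.64 in WT (D = 2.48). Egr2 read 3.58 and 10.50 in KO, against 5.97 and 11.24 in WT (D = 1.65, or 1.32 with the KO start, which lay below the array median, raised to it). Egr3 had the largest D of all genes on its main probe set (1436329_at, 3.15 and 11.13 in KO, against 8.46 and 11.90 in WT, D = 4.54, or 3.78 with the KO start raised to the array median). Its other probe set (1421486_at) read 5.77 and 6.34 in KO, against 5.82 and 7.85 in WT, with D = -1.46, so the direction for Egr3 depended on the probe set. Egr4 stood apart from the other three: it read 4.24 and 8.88 in KO, against 4.61 and 4.72 in WT. Its start was about equal, and a 24.9-fold rise was measured in KO where WT changed 1.08-fold (D = 4.53).

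The AP-1 genes divided. Jun (1417409_at), a partner of FOS in the AP-1 factor, read 4.62 and 11.02 in KO, against 7.69 and 11.39 in WT. Its rise was 6.40 in KO and 3.70 in WT (D = 2.70), and its other probe set gave D = 1.10. Fos (1423100_at) read 6.63 and 13.03 in KO, against 5.99 and 12.24 in WT, an 84.4-fold and a 76.1-fold rise (D = 0.15). Fosb read 3.43 and 9.58 in KO, against 3.15 and 9.99 in WT (D = -0.69, or -0.39 with both starts, which lay below the array medians, raised to them). Junb read 6.98 and 11.62 against 7.90 and 12.32 (D = 0.22), and Atf3, a stress-induced factor that pairs with JUN, read 4.08 and 9.59 against 4.86 and 10.21 (D = 0.16). The other Fos and Jun family genes gave D = 0.85 for Fosl1, -0.73 for Fosl2 and 0.46 for Jund. Of these 8 genes only Jun had a D past 1.

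The nuclear receptor genes of the Nr4a family differed among themselves. Nr4a1, an orphan nuclear receptor gene, read 4.79 and 12.58 in KO, against 7.12 and 13.31 in WT (D = 1.60). Nr4a2 read 6.47 and 8.46 in KO, against 5.37 and 7.09 in WT (D = 0.27), higher in KO at both times. Nr4a3 read 3.65 and 7.61 in KO, against 3.86 and 6.27 in WT (D = 1.55). Both of its starts lay below the array medians, D was 1.36 with them raised, and a probe set that did not rise in either genotype had D = -0.35. Maff, a small Maf repressor of the bZIP class, read 4.87 and 9.04 in KO, against 6.99 and 9.08 in WT (D = 2.08). The levels after serum differed by 0.04, so the whole D came from the start. Nfil3, a bZIP repressor of the circadian system, gave D = 1.58 and Mafk 1.09, both with a lower start in KO.

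The same arrangement appeared among genes that restrain the response. Dusp1 (1448830_at), a phosphatase that inactivates MAP kinases, read 8.28 and 12.74 in KO, against 11.87 and 12.82 in WT. The start was lower by 3.59 in KO, the level reached lay 0.08 below WT, and the rise was 4.46 in KO and 0.95 in WT (D = 3.51). Btg2, an antiproliferative gene whose product recruits mRNA deadenylases, read 6.09 and 12.17 in KO, against 8.11 and 12.60 in WT (D = 1.59, other probe set 0.76). Dusp5, a nuclear phosphatase of ERK, began and ended close in both genotypes (5.60 and 11.50 in KO, against 5.26 and 10.87 in WT, D = 0.29). So did Zfp36, whose product binds AU-rich mRNAs for decay (5.93 and 11.20 in KO, against 6.63 and 11.49 in WT, D = 0.41). Of 16 MAP kinase feedback genes, 4 had D of at least 1 (Dusp1, Dusp2, Spry1 and Rgs2) and 2 had D of at most -1 (Dusp8 and Spry2), with a median of 0.29. These shares, 25.0% and 12.5%, stand beside 0.885% and 0.765% of all genes, and 20.3% and 16.7% of genes that rose. Of 9 mRNA decay and antiproliferative genes, Btg2 was the only one past 1 (11.1%, beside the same 0.885% and 20.3%).

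Among inflammatory genes, the chemokine genes Cxcl1, Ccl2 and Ccl7 started lower in KO and rose by larger ratios there. A lower start did not always go with a positive D. Lif, described below, had a negative D, while Cx3cl1 started at least 2 lower in KO and had D = 0.18. Cxcl5 (D = -0.07) and Ccl5 (0.13) also started at least 2 lower in KO. They hardly changed with serum (Cxcl5 0.04 in KO and 0.11 in WT, Ccl5 0.17 and 0.04). Their D would thus be near 0 whatever the start, and both Cxcl5 values in KO lay below the array medians. Cxcl1 (1457644_s_at), a neutrophil chemokine, read 6.40 and 11.67 in KO, against 12.60 and 13.51 in WT. It began 73.5-fold lower in KO, was still 3.58-fold lower at 30 min, and had D = 4.36, with 5.49 and 1.43 on its other probe sets. Ccl2, a monocyte chemokine, read 6.59 and 10.89 in KO, against 11.38 and 12.91 in WT (D = 2.77), and its neighbour in function Ccl7 read 7.30 and 11.09 against 9.56 and 11.36 (D = 1.99). Ptgs2, the inducible cyclooxygenase, read 7.51 and 11.78 in KO, against 9.69 and 11.67 in WT (D = 2.29, other probe set 2.23). The deubiquitinase gene Tnfaip3, a brake on NF-kB, gave D = 1.58 from 5.35 and 9.45 in KO, against 8.32 and 10.84 in WT, with D = 0.64 on its other probe set. For Cxcl1, Ccl2 and Tnfaip3 the KO level stayed at least 1 below WT, and the gap narrowed without closing.

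A larger ratio was not always a larger amount. On the linear scale, the amount gained from 0 to 30 min in KO was smaller than that in WT for 13 of the 103 genes with D of at least 1, among them Egr1 (0.574 of the WT gain), Egr2 (0.610), Egr3 (0.643), Nr4a1 (0.609), Jun (0.828), Btg2 (0.765), Cxcl1 (0.582) and Ccl2 (0.358). All of the 89 genes with a negative D kept their direction on that scale. Among genes with a low start in KO, Dusp1 gained 1.87 times and Ptgs2 1.37 times the WT amount, and Maff 1.20 times. The ratio and the amount thus gave opposite orders of the genotypes for Egr1, Egr2, Egr3, Nr4a1 and Jun.

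**Figure D2:**
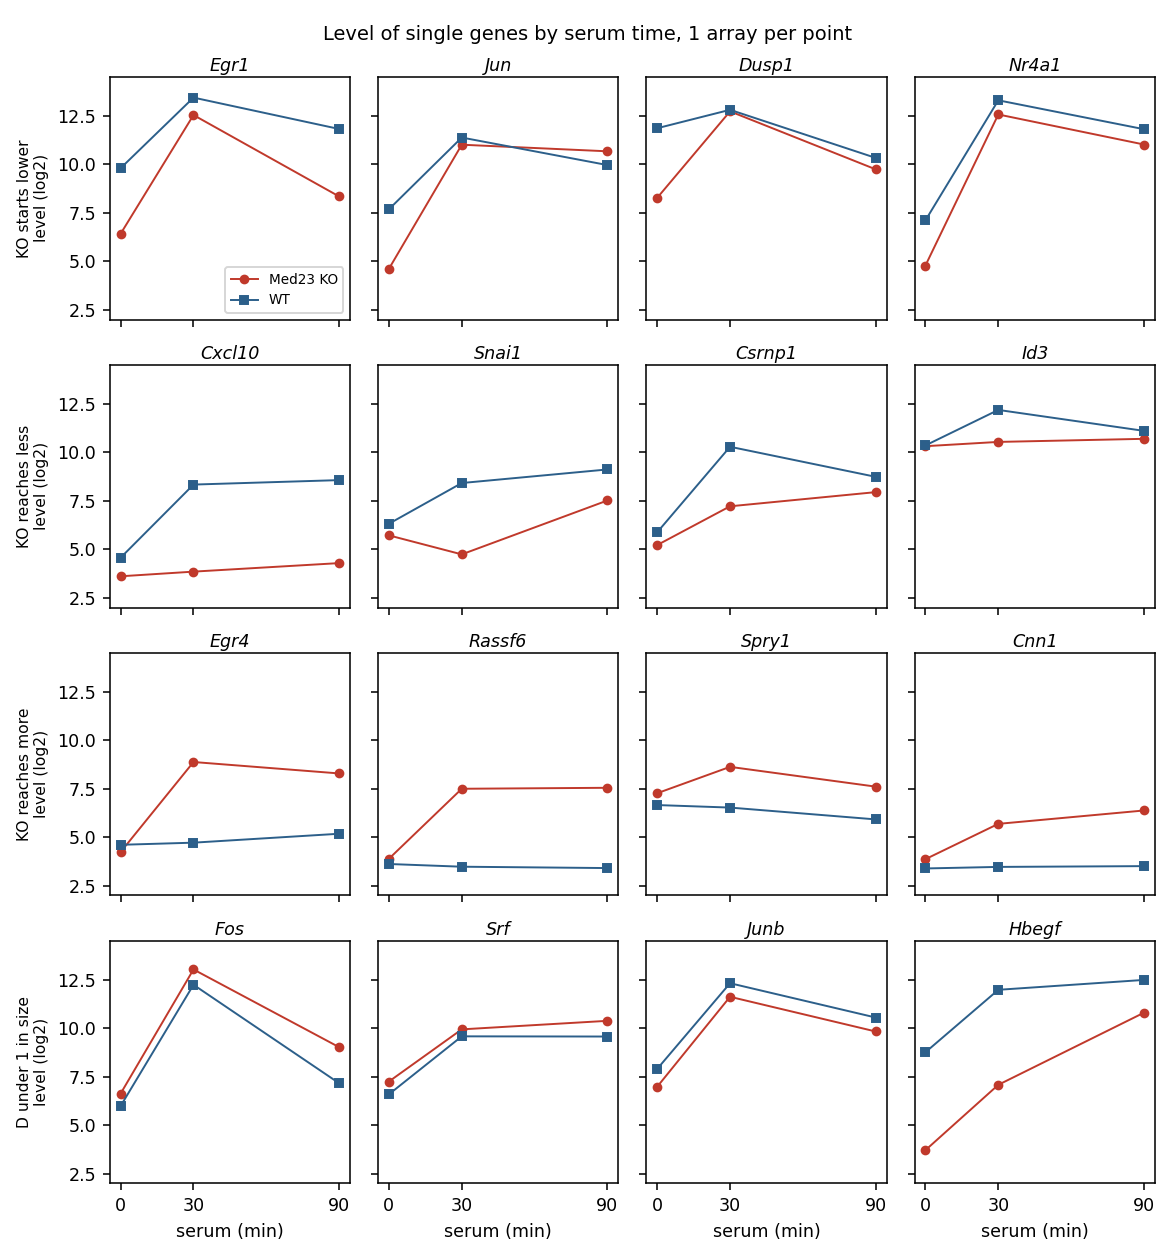
Level (log2, 1 array per point) of 16 genes in Med23 KO (red circles) and WT (blue squares) MEFs at 0, 30 and 90 min of serum, in rows of genes that started lower in KO, reached less in KO, reached more in KO, or had D under 1 in size. In the top row the lines lie far apart at 0 min and close at 30 min, and in the second row they lie close at 0 min and apart at 30 min.

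Genes with a rise in WT that was small or missing in KO included cytokine, STAT-feedback and BMP or TGF-beta response genes. Cxcl10 (1418930_at), a chemokine induced by interferon and NF-kB, read 3.61 and 3.85 in KO, against 4.57 and 8.34 in WT. Both KO values lay below the array medians, WT rose 13.6-fold, and D was -3.53, the most negative of all genes. Lif, an IL6-family cytokine that signals through STAT3, read 4.01 and 5.44 in KO, against 5.99 and 10.08 in WT (D = -2.66, other probe set -2.51). KO stood 24.9-fold lower after serum, with 3.94-fold already present at the start. Traf1, an adaptor of TNF receptors and an NF-kB target, read 3.38 and 4.42 in KO, against 4.52 and 8.18 in WT (D = -2.62, other probe set -0.69).

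Of the feedback inhibitors of cytokine receptors, 3 had a rise of at least 1 in WT and a change under 1 in KO. Socs3 (1455899_x_at), which blocks the IL6-family receptor kinases, read 9.76 and 9.40 in KO, against 8.60 and 10.67 in WT. KO began 2.24-fold higher and ended 2.41-fold lower, and all 3 probe sets had D between -2.81 and -2.04. Socs1 read 4.31 and 4.15 in KO, against 4.20 and 5.35 in WT (D = -1.31), and Cish, a STAT5 target, read 5.55 and 6.18 against 5.66 and 7.37 (D = -1.08). These were 3 of 7 members of the Socs list (42.9%, against 0.765% of all genes and 16.7% of genes that rose). In the list 0 of 7 had D of at least 1, and 0 of 7 rose by at least 1 in KO against 3 in WT. The other members were Socs2 (D = 0.35), Il6st (0.14), Osmr (-0.14) and Pim1 (-0.24). None of them rose by at least 1 in either genotype, so the share among genes that rose is a loose comparison. The median D of the list was -0.24.

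Of 17 BMP, TGF-beta and Notch response genes, 15 had a D below 0 (88.2%, against 55.7% of all genes at or below 0), and 12 had D under 1 in size. In 3 genes D was -1 or less (17.6%, against 0.765% of all genes and 16.7% of genes that rose), and in 2 it was 1 or more. The median of -0.32 was smaller in size than the standard deviation of D over all genes. Snai1 (1448742_at), a repressor of epithelial genes, read 5.72 and 4.74 in KO, against 6.32 and 8.42 in WT (D = -3.08). Id3 (1416630_at), a BMP target that blocks bHLH factors, started level, at 10.32 in KO and 10.36 in WT, and reached 10.54 in KO and 12.19 in WT (D = -1.61). Hes1, the Notch target repressor, read 4.93 and 6.49 in KO, against 6.58 and 9.53 in WT (D = -1.39). Smaller differences in the same direction were -0.94 for Smad7, an inhibitor of TGF-beta signalling, -0.88 for Id2 and -0.54 for Id1. The members above 1 were Id4 and Skil. Id4 read 3.66 and 5.91 in KO, the start below the array median, against 8.04 and 7.96 in WT (D = 2.33). Its other probe sets had D = 0.49 and 1.03, and the mean over probe sets was 1.28. Skil had D = 1.15, and -1.07 on its other probe set.

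Besides Myc, described below, 3 immediate-early transcription factor genes had D of at most -1, in each case with a gap of at least 1 in size at 30 min only. KO already started somewhat lower in all 3, with gaps at 0 min of -0.66 for Csrnp1, -0.85 for Bhlhe40 and -0.97 for Klf10. Csrnp1 (1434350_at), a nuclear protein gene induced by AXIN1, read 5.22 and 7.22 in KO, against 5.88 and 10.29 in WT, a 4.0-fold and a 21.3-fold rise (D = -2.41). Bhlhe40, a bHLH repressor, read 7.18 and 8.29 in KO, against 8.03 and 10.49 in WT (D = -1.35), and Klf10, a TGF-beta-inducible Krüppel-like factor, read 5.07 and 6.92 against 6.04 and 9.02 (D = -1.13). Further genes among the 12 most negative were Tcim (D = -2.28), Trib3, a pseudokinase of the ATF4 stress response (D = -2.10), Tmeff2 (D = -2.10), and Pdgfb, a growth factor chain (D = -1.73). Pdgfb (1450414_at) read 3.65 and 3.67 in KO, below the array medians, against 6.80 and 8.55 in WT. Its other probe set (1450413_at) read 3.47 and 4.12 in KO, against 5.08 and 6.33 in WT (D = -0.60). Trib3 likewise had D = -0.61 on its other probe set, and the mean over probe sets was -1.17 for Pdgfb. Both Tmeff2 values in KO (3.32 and 3.07) lay below the array medians, and D of Tmeff2 was -0.82 as the mean over all its probe sets. Ptx3, a secreted pattern recognition protein, read 12.02 and 11.91 in KO, against 5.15 and 7.43 in WT (D = -2.39). KO was already far higher before serum, the other probe set had D = -0.57, and the mean over both was -1.48.

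A negative D from a higher start in KO was found for 11 genes. Myc read 7.90 and 8.64 in KO, against 6.70 and 9.20 in WT, so that the WT rise of 2.50 passed the KO rise of 0.74 (D = -1.76). Ccn1, a secreted matrix protein and SRF and YAP target, read 11.12 and 13.81 in KO, against 9.84 and 13.82 in WT. The level reached differed by 0.01, and all 4 probe sets gave D between -1.29 and -1.01. Plk2, a kinase induced by serum, read 10.09 and 11.27 in KO, against 8.69 and 11.25 in WT (D = -1.38, or -0.675 as the mean over all its probe sets). Spry2, an inhibitor of receptor tyrosine kinase signalling, read 8.84 and 9.22 against 7.06 and 8.90 (D = -1.46, other probe set 0.02).

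Level reached alone was higher in KO for 33 genes. Rassf6, a member of the RAS-association domain family, read 3.89 and 7.50 in KO, against 3.62 and 3.48 in WT (1429262_at, D = 3.75). The KO start and both WT values lay below the array medians, and KO stood at least 12.3-fold higher at 30 min. Spry1 read 7.27 and 8.63 in KO, against 6.66 and 6.53 in WT (D = 1.49), opposite in direction to Spry2. Dusp2, a nuclear MAP kinase phosphatase, read 4.14 and 7.50 in KO, against 4.03 and 6.19 in WT (D = 1.20). Smooth muscle genes were among those with a rise in KO only: the calponin gene Cnn1 read 3.87 and 5.69 in KO, against 3.39 and 3.47 in WT (D = 1.74). Its KO start and both WT values lay below the array medians. Lmod1, which nucleates actin in smooth muscle, read 5.52 and 7.35 in KO, against 3.81 and 3.70 in WT (D = 1.94), with a gap above 1 at both times. Of 15 smooth muscle contractile genes these were the 2 with D of at least 1 (13.3%, against 0.885% of all genes and 20.3% of genes that rose). In the list 0 had D of at most -1 (0.765% of all genes and 16.7% of genes that rose), and the median was 0.18. Tagln (-0.78) and Myl9 (-0.82), already high in KO, rose by more in WT.

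Other positive differences came from a fall in WT. Gadd45a, a stress and growth arrest gene, read 4.95 and 4.57 in KO, against 9.30 and 6.43 in WT (D = 2.49). Rgs2, which limits G protein signalling, read 3.58 and 3.47 in KO, below the array medians, against 7.26 and 5.64 in WT (D = 1.51), and its 3 probe sets gave D between 1.30 and 2.40. In all, 11 of the 103 genes with D of at least 1 had a WT fall of at least 1. Hspa1b, an inducible heat shock protein gene whose near-identical copy Hspa1a the probes may also read, stood at 8.63 and 10.55 in KO, against 11.25 and 10.68 in WT (D = 2.49, all 3 probe sets between 2.32 and 2.59).

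SRF itself and its partners had D values under 1 in size, as had all but 1.65% of the analysed genes. Srf (1418255_s_at) read 7.25 and 9.94 in KO, against 6.59 and 9.58 in WT, a 6.45-fold and a 7.94-fold rise (D = -0.30, other probe set -0.84). Elk1 had D = 0.26 and Mrtfa -0.09, and of the 6 analysed genes of SRF and its cofactors, 0 reached 1 in either direction. Actin-MAL-SRF target genes had a median D of -0.06, with Cnn1 above 1 and Ccn1 and Zyx below -1 among 31. These shares, 3.23% and 6.45%, stand beside 0.885% and 0.765% of all genes, and 20.3% and 16.7% of genes that rose. Zyx (D = -1.09) had D = 0.57 on its other probe set. Ankrd1, a stretch-induced repressor, read 4.63 and 7.03 in KO, against 9.17 and 11.04 in WT (D = 0.53), and the EGF receptor ligand Hbegf read 3.71 and 7.08 against 8.76 and 11.98 (D = 0.15). For both the KO level was far lower at each time, and the ratio after serum was close to that in WT.

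**Figure D3:**
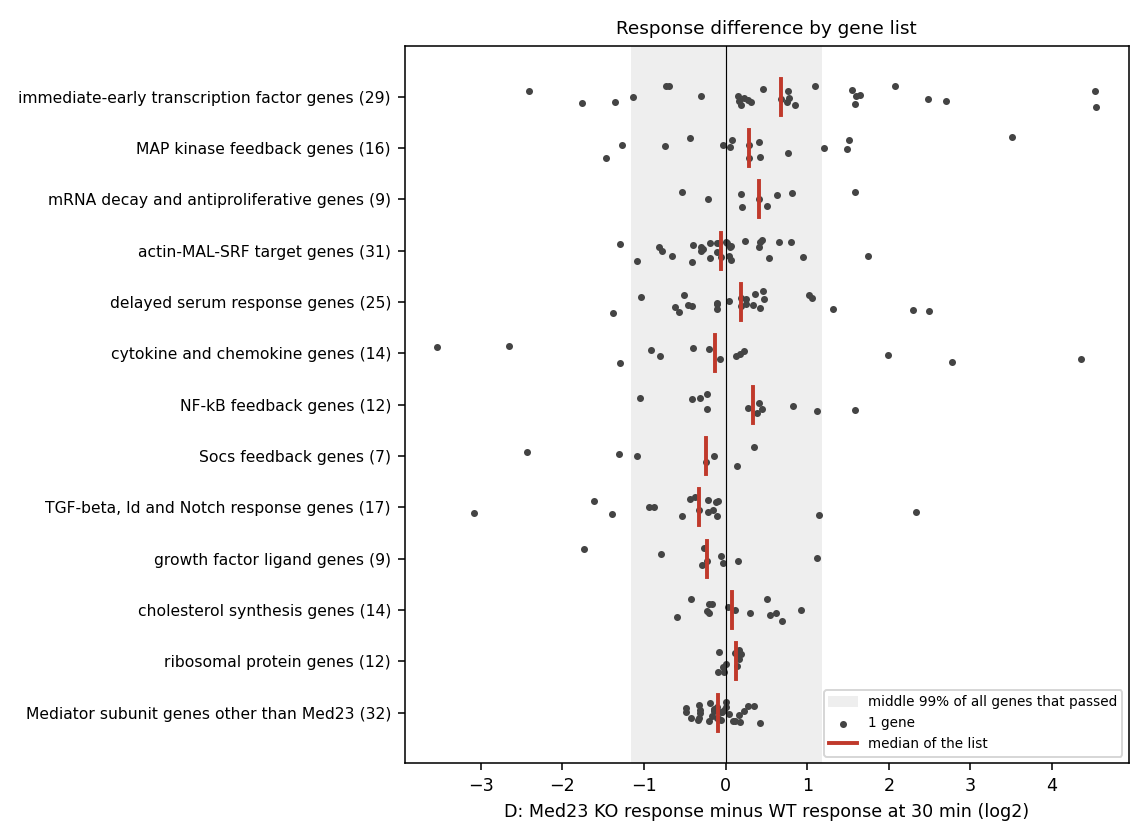
Response difference D (x axis, log2) of each analysed gene (grey points, spread vertically for sight) in 13 lists, with the number of genes in brackets, the list median as a red bar and the middle 99% of all 11637 genes (-1.15 to 1.17) shaded. Immediate-early genes reach from -2.41 to 4.54 and ribosomal protein genes from -0.09 to 0.19.

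Delayed serum response genes had 5 of 25 at D of at least 1 (20.0%) and 2 at -1 or less (8.0%), with a median of 0.19, led by Gadd45a and Ptgs2. The shares to read these and the next counts against were 0.885% and 0.765% of all genes, and 20.3% and 16.7% of genes that rose in either genotype. Cytokine and chemokine genes had 3 of 14 on each side (median -0.14), namely Cxcl1, Ccl2 and Ccl7 above and Cxcl10, Lif and Cxcl2 below, and NF-kB feedback genes 2 of 12 above and 1 below (median 0.33). Growth factor ligand genes had 1 of 9 on each side (median -0.23), and interferon-stimulated genes had Gbp2 alone above 1 among 16 (median 0.07). Of 20 starvation genes that serum switches off, Irs2 alone was below -1 (median -0.08). None of 14 circadian clock genes, 14 cholesterol synthesis genes, 12 ribosomal protein genes, 32 Mediator subunit genes other than Med23 or 9 fibroblast markers reached 1 in size, and their medians were 0.09, 0.08, 0.13, -0.10 and -0.09. Rpl12, a ribosomal protein gene outside that list, had D = -1.55 (rises of 0.03 in KO and 1.58 in WT). Of 6 analysed neural markers only Sox2 passed 1 (D = 1.10, or 0.67 with its low KO values raised to the array medians), and 0 of the 3 macrophage, 3 endothelial and 1 epithelial markers analysed did. Raising low values in the same way left D under 1 in size for Fgf2 (0.24), Gem (0.33) and Cxcl2 (-0.47). It made D larger in size for Cxcl10 (-3.82), Traf1 (-3.15), Pdgfb (-1.80), Rgs2 (1.57) and Cnn1 (1.83). Over all genes the median was -0.04.

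The 90 min arrays, which D did not use, show which gaps remained. Of the 71 genes that differed only in the level reached, 28 kept a gap of at least 1 in the same direction at 90 min (39.4%), against 170 of the 481 genes of all sizes of D with a gap at 30 min only (35.3%). Of the 35 genes that differed only in the starting level, 7 had that gap again at 90 min (20.0%), against 157 of 444 for all genes with a gap at 0 min only (35.4%). The 71 and the 35 genes were chosen for D of at least 1 in size, while the 481 and the 444 include genes whose gap barely crossed 1. The shares of each pair are thus not of like genes, and nothing is drawn from their difference. Cxcl10 read 4.29 in KO and 8.57 in WT at 90 min, Egr4 read 8.29 in KO and 5.18 in WT, and Rassf6 7.55 in KO and 3.41 in WT. Their gaps at 90 min were -4.28, 3.11 and 4.14, against -4.49, 4.16 and 4.02 at 30 min. Csrnp1 and Bhlhe40 came together, with 90 min gaps of -0.79 and 0.01, and Socs3 read 8.84 in KO and 9.69 in WT. Egr1 opened again to a gap of -3.48 (8.35 in KO, 11.83 in WT), while Dusp1 (-0.59) and Jun (0.71) remained within 1.

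Other probe sets of the same gene gave a check within the same RNA. Of 67 named genes with D of at least 1 in size, 29 had another probe set above the filter, 41 such probe sets in all. The sign was the same for 35 of the 41, and 23 were also at least 1 in size. The 6 others belonged to Egr3, Skil, Zyx, Nr4a3, Spry2 and Dnajb4.

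**Figure D4:**
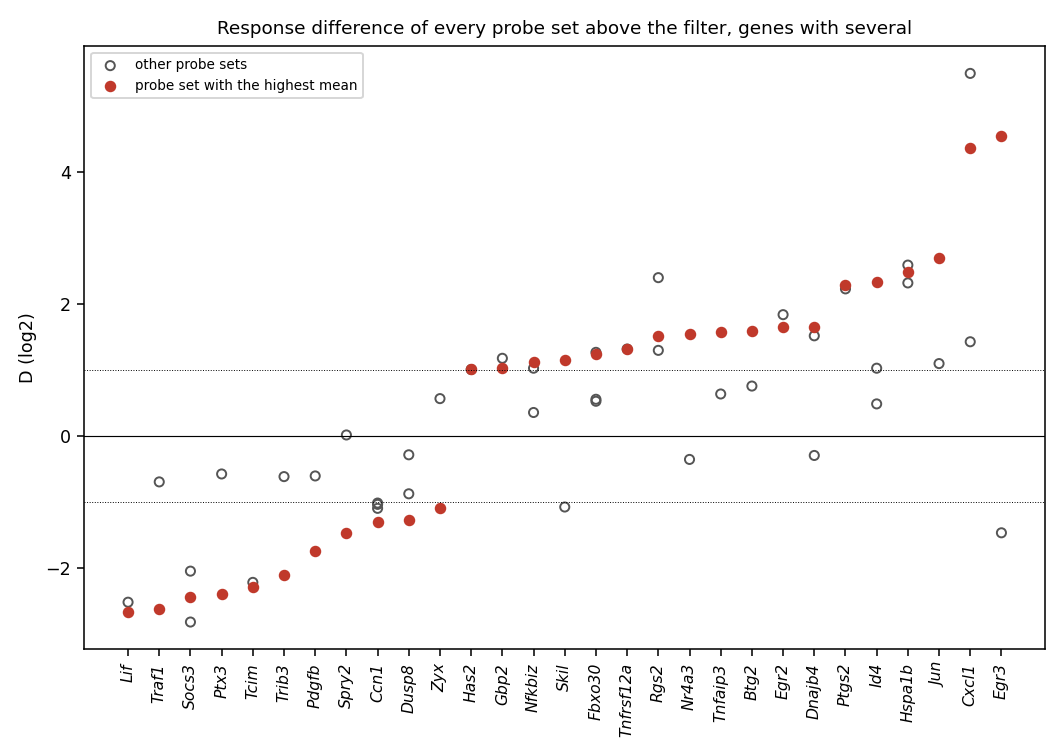
Response difference D (y axis, log2) of every probe set above the filter for the 29 named genes with several, the one with the highest mean in red and the others as open circles, ordered by the red value. Socs3, Lif, Ccn1, Ptgs2 and Hspa1b have their probe sets close together, and Egr3 has them on opposite sides of 0 at 4.54 and -1.46.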

How the data were processed

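Total RNA had been extracted from cultured MEFs, turned into biotin-labelled cRNA and hybridised to Affymetrix arrays, per the labels' protocols. The authors deposited a table of log2 levels. RMA and MAS5 are named per the submitters' processing notes, and which made the values is not known here. Every one of the 10 value columns was mapped to a sample by its name.

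Gene symbols came from the platform annotation, updated through Entrez identifiers to RefSeq (GRCm38.p6). Of 45101 probe sets, 34945 had 1 symbol, 34741 of them matched by identifier, 932 had several symbols and were left out, 9160 were unnamed and 64 were array controls. For a gene with several probe sets, the one whose mean over the 4 arrays was highest was taken, and the gene entered when any of the 4 values exceeded 3.89, the median over the whole array. Responses, gaps and their difference were subtractions of log2 values (Python 3.11.15, pandas 2.3.3), checked on simulated data. With 1 array per condition no test was run and no p-value is given, and precision is limited by the number of arrays. The members and lists were chosen with earlier results of these data known. Genes were named by rule: the 12 largest differences in each direction among genes that moved by at least 1 with serum, the 6 largest in each class, Med23, Srf, Elk1, Mrtfa, Egr1 and Fos, list members past 1, and list members shown for a small difference. Clone and predicted-gene names were skipped. The alternatives were quantile normalization, median centring, raising low levels, other filters, other probe sets, other thresholds and the linear scale.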

Additional observations from a re-analysis of the deposited data

Results flagged for a closer look

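For 5 named genes the response went in opposite directions in the 2 genotypes by at least 0.5 each on the probe set with the highest mean, a limit set with the values known. The difference was not tested, because each genotype had 1 pair of arrays. Hspa1b rose by 1.92 in KO and fell by 0.57 in WT (D = 2.49), and on its other probe sets the WT change was -0.32 and -0.35, short of that limit. Snai1 fell by 0.98 in KO and rose by 2.10 in WT (D = -3.08). Tcim had changes of -0.61 in KO and 1.67 in WT (D = -2.28), and its other probe set had -0.34 in KO and 1.87 in WT. Trib3 had -0.56 in KO and 1.54 in WT (D = -2.10). Its KO value at 30 min lay below the array median, its KO change was -0.33 with that value raised, and its other probe set had -0.37 in KO and 0.24 in WT. For Hspa1b, Tcim and Trib3 the limit was thus met on 1 probe set only. Msra, a methionine sulfoxide reductase gene, had 0.51 in KO and -1.07 in WT (D = 1.58).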

How the results depend on the processing

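No leave-out of replicates could be run, and no paired analysis was possible because each condition had 1 array and no test was made. All 335 values of the 67 named genes with D of at least 1 in size kept their sign under 5 alternatives. These were quantile normalization, median centring, raised low levels and both other choices of probe set. Of the values, 318 stayed at least 1 in size, and 50 genes did so under all 5. The genes had been chosen for a D of at least 1 in size. Median centring could not change D, because the array medians fell alike, from 3.91 to 3.86 in KO and from 3.93 to 3.88 in WT. With the probe set of the largest range, D was about the same for 69 of 72 named genes. The 335 values are thus a weak check of sign, and 6 of the 67 genes had another probe set of opposite sign. On the linear scale the sign was -1 in place of a positive D for Egr3, Cxcl1, Ccl2, Jun, Egr1, Egr2, Nr4a1, Btg2, Tnfaip3, Tnfrsf12a, Gem and Skil. The number of genes past the threshold was 192. It was 121 (48 negative) with the filter at the 75th percentile, which tests fewer genes, 303 (151 negative) with the probe set of the largest range, 1058 (496 positive, 562 negative) at 1.5-fold and 25 (15 and 10) at 4-fold. Of the classes, the probe set of the largest range gave 57 genes by starting level, 118 by level reached and 67 with neither gap, and the higher filter gave 35 by level reached and 18 with neither gap. With gaps counted from 1.5-fold, 76 genes had the same direction at both times, 6 opposite directions and 3 neither gap. Averaging the probe sets of a gene gave 0 genes of opposite direction and 18 with neither gap, and a median D of 0.22 for the immediate-early genes in place of 0.68. The cause of these shifts was not tested beyond the fewer genes or other probe sets named.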
